A study of Mus musculus with 13 samples.

Results

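Cell cycle and proliferation genes were examined in right ventricles of mice with and without a mutation of desmoglein 2. The set holds 47 of the 26264 genes in the deposited tables, chosen by name: 9 G1 cyclins, kinases and E2F1, 13 S-phase genes, 22 mitotic genes and 3 CDK inhibitors. The study measured polyadenylated RNA from the right ventricle of 6 wild-type and 7 Dsg2 F536C (a phenylalanine-to-cysteine change) knock-in mouse libraries. Dsg2 encodes a cadherin of the desmosome, the junction that holds heart muscle cells together, and the study concerns arrhythmogenic right ventricular cardiomyopathy. The labels name the allele and the tissue, and they name no treatment; nothing in the sources used here gives zygosity, strain, age, sex, litter or batch. Whether each library is a separate animal is not stated, and p-values therefore measure only how these libraries vary.

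Cells divide in a fixed order. Cyclin D with CDK4 or CDK6, then cyclin E with CDK2, release the E2F transcription factors in G1; E2F targets load and fire the MCM helicase and supply nucleotides in S phase; cyclin A and cyclin B with CDK1 then drive mitosis, in which Aurora and Polo kinases, kinesin motors and kinetochore proteins separate the chromosomes. CDK inhibitors hold this sequence back. In the adult heart most cardiomyocytes have left the cycle, and dividing cells are mostly found among fibroblasts, endothelial cells and immune cells rather than in heart muscle itself. In bulk tissue, fewer cells of a type and less RNA per cell cannot be told apart.

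Knock-in 4, 5 and 6 differed from the other libraries, and also from each other. Fractional read numbers made up 10.2% to 10.7% of their values and 3.07% to 3.79% of those of the other 10 libraries, so each result is given for all 13 libraries and for the 10 without these. Levels per library are in CPM, reads of a gene scaled to its library's total with TMM factors, fold changes are log2 values ± SE, and a member was called where edgeR's quasi-likelihood test gave an adjusted p under 0.05 over all tested genes. Library totals ran from 14498336 to 29848597 reads. The summed CPM of 6 epithelial markers was 2364 to 3628 in knock-in 4, 5 and 6 and at most 35.1 in the other libraries. Dsg2, the targeted gene, had less RNA in all 7 knock-in libraries: wild type ranged from 84.3 to 116 CPM with a median of 98.4, knock-in 1, 2, 3 and 7 had 47.8, 52.7, 61.9 and 43.03, and knock-in 4, 5 and 6 had 37.99, 33.4 and 57.1. The change was -1.08 ± 0.14 (adjusted p = 6.96e-05) with 13 libraries and -0.97 ± 0.12 (adjusted p = 3.16e-05) with 10. The median change of 7 cardiomyocyte markers was -1.045 and -0.80, and its part in the fall of Dsg2 was not tested.

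The promoters of 6 members are shown for the sequence elements by which S-phase and mitotic genes are usually told apart, E2F sites and the CHR element. All but that of Pcna carry a match to 1 of these. E2F sites are typical of genes switched on at the start of S phase. A CHR element together with CCAAT boxes, bound by NF-Y, is typical of genes that peak before mitosis. The sequences are RefSeq promoters of the build GRCm38.p6, an older build than that of the gene tables, from 250 bases before to 50 bases after the first listed start of the gene, and 37 of the 47 members had one. Capitals mark letters that match a motif on either strand. The CHR motif was searched as TTTGAA and, in its other spelling, as TTCGAA, and the CCAAT box by the letters of its name. The E2F motif was searched as TTGGCGC, with TTCGCGC as the second form and with TTCCCGC as the last. Matches can overlap one another, also between an E2F motif and a CCAAT box on the opposite strand. Kif11 (chr19:37376132-37376431, plus strand), Ube2c (chr2:164769679-164769978, plus strand) and Cenpf (chr1:189688037-189688336, minus strand) are mitotic genes, the first of these a spindle motor that rose, the next a ubiquitin-conjugating enzyme that rose and the last a kinetochore protein that fell.
Kif11: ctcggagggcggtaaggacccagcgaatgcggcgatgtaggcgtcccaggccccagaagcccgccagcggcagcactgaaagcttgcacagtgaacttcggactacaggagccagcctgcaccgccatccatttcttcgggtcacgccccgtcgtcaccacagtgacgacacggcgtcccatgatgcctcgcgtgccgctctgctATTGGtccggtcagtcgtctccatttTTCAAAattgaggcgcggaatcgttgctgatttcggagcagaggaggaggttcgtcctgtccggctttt
Ube2c: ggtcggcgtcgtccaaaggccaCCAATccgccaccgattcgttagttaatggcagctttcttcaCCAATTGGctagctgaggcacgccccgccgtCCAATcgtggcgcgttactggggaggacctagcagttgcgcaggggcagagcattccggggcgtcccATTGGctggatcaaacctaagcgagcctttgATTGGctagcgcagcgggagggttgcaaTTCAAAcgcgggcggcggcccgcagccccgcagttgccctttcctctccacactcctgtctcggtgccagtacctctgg
Cenpf: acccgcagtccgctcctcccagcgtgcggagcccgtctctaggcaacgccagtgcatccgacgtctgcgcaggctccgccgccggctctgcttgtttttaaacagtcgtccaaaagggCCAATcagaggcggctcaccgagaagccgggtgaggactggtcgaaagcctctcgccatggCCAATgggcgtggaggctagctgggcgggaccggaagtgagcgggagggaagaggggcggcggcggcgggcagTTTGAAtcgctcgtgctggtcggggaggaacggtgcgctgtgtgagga
Mcm6 (chr1:128359656-128359955, minus strand), Mcm3 (chr1:20820263-20820562, minus strand) and Pcna (chr2:132253131-132253430, minus strand) are S-phase genes, the first and the next being helicase subunits that rose with either set of libraries, while the sliding clamp gene Pcna did not rise.
Mcm6: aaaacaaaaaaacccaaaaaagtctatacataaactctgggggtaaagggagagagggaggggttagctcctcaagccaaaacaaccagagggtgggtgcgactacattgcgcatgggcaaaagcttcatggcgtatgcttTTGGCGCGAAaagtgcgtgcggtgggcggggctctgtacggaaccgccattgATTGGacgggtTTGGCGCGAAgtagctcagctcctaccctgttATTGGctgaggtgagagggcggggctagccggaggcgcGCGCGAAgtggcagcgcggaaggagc
Mcm3: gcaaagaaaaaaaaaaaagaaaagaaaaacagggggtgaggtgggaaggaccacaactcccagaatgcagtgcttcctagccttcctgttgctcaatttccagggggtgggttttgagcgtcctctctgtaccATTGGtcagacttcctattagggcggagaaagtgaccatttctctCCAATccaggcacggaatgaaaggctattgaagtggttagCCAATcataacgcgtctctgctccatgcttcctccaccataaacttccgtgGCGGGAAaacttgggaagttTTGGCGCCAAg
Pcna: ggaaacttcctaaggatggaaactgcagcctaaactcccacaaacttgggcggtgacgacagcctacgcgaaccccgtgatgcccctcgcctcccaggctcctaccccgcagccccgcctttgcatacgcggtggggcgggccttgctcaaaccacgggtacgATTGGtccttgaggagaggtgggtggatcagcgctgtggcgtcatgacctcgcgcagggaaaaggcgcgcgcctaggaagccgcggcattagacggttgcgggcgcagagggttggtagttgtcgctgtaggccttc

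A CHR match stood in 14 of the 17 mitotic promoters (82.4%) and in 3 of the 12 S-phase promoters (25.0%), against 19.4% of the 27025 promoters of all genes in the same table. The CCAAT box stood in 16 mitotic promoters (94.1%) and 9 S-phase promoters (75.0%), against 37.9% of all. An E2F match stood in 7 S-phase promoters (58.3%) and 3 mitotic promoters (17.6%), against 8.21% of all. The promoters shown hold both ends of this range: Mcm6 has 5 E2F matches and no CHR, Kif11 has 1 CHR and no E2F, and Pcna has neither. Cenpf, which fell, holds 1 CHR match and 2 CCAAT boxes, and Kif11 and Ube2c, which rose, hold both motifs too. Birc5, Ccnb1 and Cenpe rose and had no CHR match in this window. The 6 G1 promoters had no CHR match, 1 with a CCAAT box and 1 with an E2F match.

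In wild type the members spanned a wide range of level. On the TPM scale, which divides by transcript length, Pcna was highest with 96.9 ± 8.85 TPM (SD, n = 6), followed by Cdk4 with 46.1 ± 4.47 TPM and Ccnd3 with 40.4 ± 6.92 TPM. Neighbours below them lay within their spread of each other: Cenpa had 29.9 ± 3.096 TPM, Cdkn1b 28.1 ± 4.56 TPM and Ccnd1 26.1 ± 7.78 TPM. The median level was 6.68 TPM over the G1 genes, 2.64 over the S-phase genes, 0.639 over the mitotic genes and 24.5 over the CDK inhibitors. Of the 22 mitotic genes, 17 were under 1 TPM, and the lowest was Cenpe, a kinetochore motor, with 0.195 ± 0.0776 TPM. Exceptions at the centromere were Cenpa, which encodes the centromeric histone H3, and Cenpf with 7.004 ± 1.55 TPM. The scarce members rest on few reads, down to 2 reads of Aurka in a wild-type library.

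**Figure D1:**
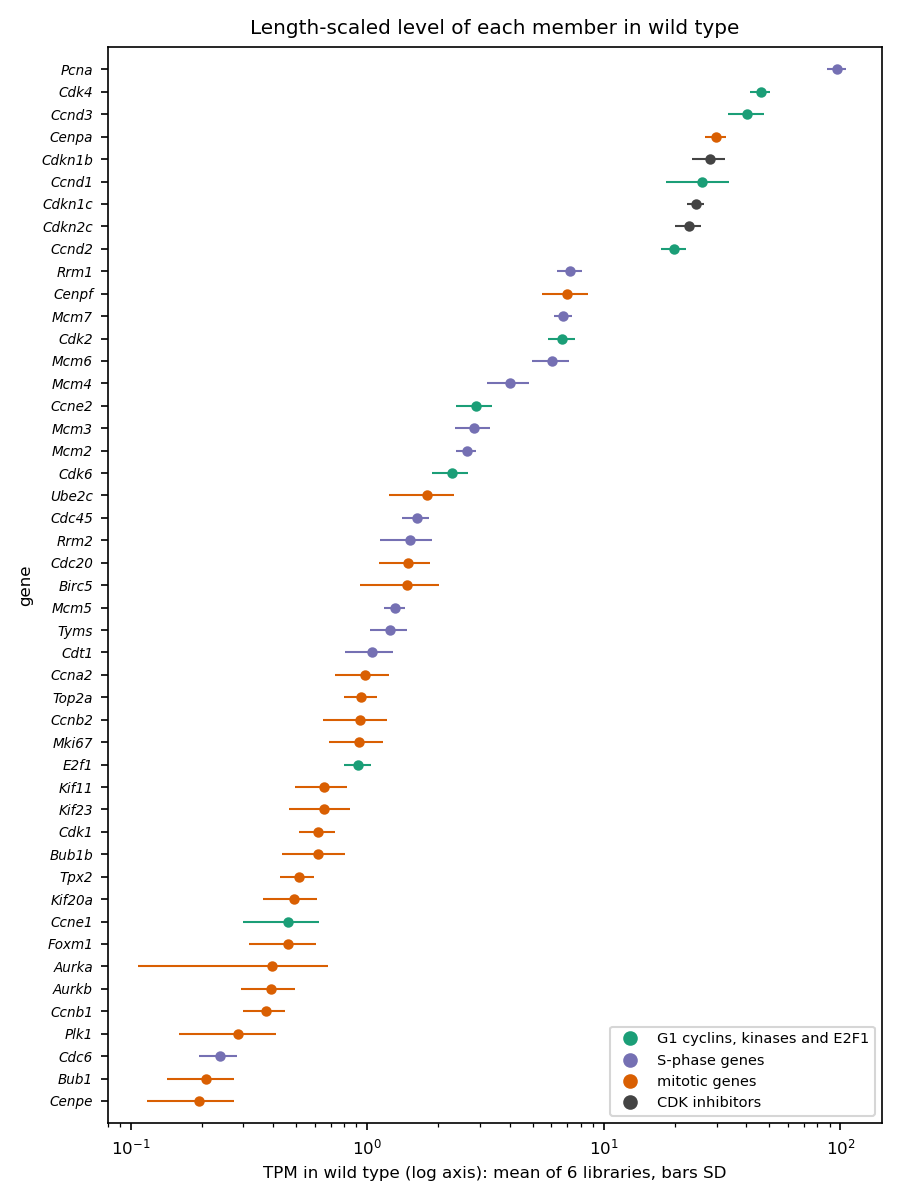
TPM of each of the 47 members in wild type on a log axis, as the mean of 6 libraries with bars of 1 SD and colours for the 4 roles. Pcna is highest at 96.9 TPM, and 17 of the 22 mitotic genes lie under 1 TPM.

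Most members were higher in knock-in. With 13 libraries 33 of 47 were called higher and 3 lower, where 23.6% of the 14588 genes tested were called higher and 21.0% lower. With 10 libraries 21 were called higher and 2 lower, where 22.3% of 14518 genes were higher and 21.3% lower. In either direction 44.6% and 43.7% of all genes were called. Over the members the median change was 1.56 with 13 libraries and 0.58 with 10, beside 0.08 and 0.02 over all tested genes. All 47 passed the filter on low counts in both sets, and 20 rose with either set of libraries. Scaling matters here: when libraries were scaled by their totals alone, the median over all genes moved to 0.33 and 0.26, the calls over all genes from 3442 higher and 3060 lower to 6110 and 1661 with 13 libraries and from 3241 and 3099 to 6049 and 1528 with 10, and the members' calls to 40 higher and 1 lower with 13 and 34 and 1 with 10. On log2(TPM + 1) the all-gene medians were 0.38 and 0.32, and on log2(TPM + 0.1) they were 0.48 and 0.40.

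**Figure D2:**
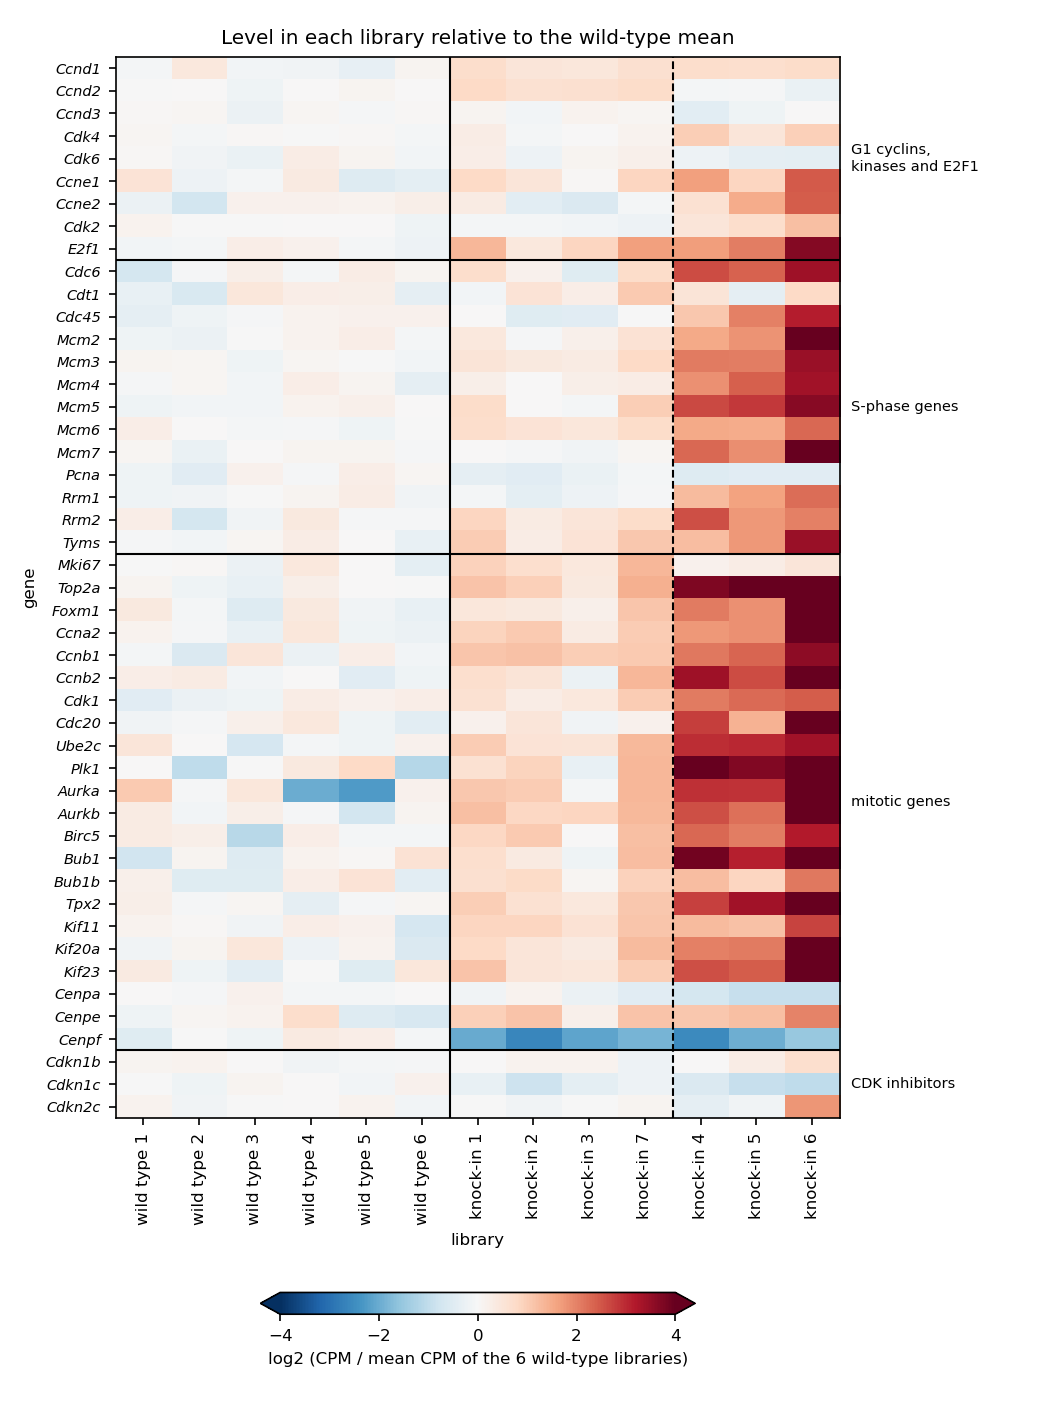
Heat map of the log2 ratio of each member's CPM to the mean of the 6 wild-type libraries, with libraries in columns (knock-in 4, 5 and 6 to the right of the dashed line), genes in rows by role, and colours saturating at 4 on the log2 scale. Knock-in 6 holds the highest value for 36 of the 47 members, and Cenpf is low in all 7 knock-in libraries.

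Of the 4 roles, the mitotic genes had the most members called higher. The share of all tested genes called higher was 23.6% with 13 libraries and 22.3% with 10. With 13 libraries 20 of 22 were called higher and 1 lower, with a median log2 fold change of 2.23, or 1.38 without knock-in 6. With 10 libraries 14 were called higher, or 8 without knock-in 7, and 1 lower, with a median of 0.81. The 14 that rose with either set were Mki67, Top2a, Ccna2, Ccnb1, Cdk1, Ube2c, Aurkb, Birc5, Bub1b, Tpx2, Kif11, Kif20a, Kif23 and Cenpe. In 7 of these, Top2a, Ccnb1, Cdk1, Ube2c, Aurkb, Tpx2 and Kif11, every knock-in library lay above every wild-type library, as did 8.60% of the 14588 tested genes. The median ratio of a mitotic gene to its wild-type mean was 1.79 in knock-in 1, 1.55 in knock-in 2, 1.21 in knock-in 3 and 2.20 in knock-in 7, and it was 4.604, 4.42 and 17.02 in knock-in 4, 5 and 6. Among knock-in 1, 2, 3 and 7, knock-in 7 was highest for 16 of the 22 and knock-in 3 lowest for 18.

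Cyclin B1 and its kinase start mitosis. Ccnb1, the cyclin, ranged from 0.512 to 1.06 CPM with a median of 0.714 in wild type, was 1.65, 1.71, 1.51 and 1.58 CPM in knock-in 1, 2, 3 and 7, and was 3.27, 3.85 and 9.04 in knock-in 4, 5 and 6. The first 4 of these libraries were close together and all 7 lay above wild type. Its log2 fold change was 2.10 ± 0.45 (adjusted p = 0.00225) with 13 libraries and 1.10 ± 0.24 (adjusted p = 0.00257) with 10. Cdk1, the kinase that cyclin B activates, ranged from 1.82 to 3.03 CPM with a median of 2.499 in wild type, against 3.78, 3.08, 3.34 and 5.01 in knock-in 1, 2, 3 and 7 and 10.4, 11.8 and 13.4 in knock-in 4, 5 and 6. The groups did not overlap, although knock-in 2 was only just above the highest wild-type library. The log2 fold change of Cdk1 was 1.55 ± 0.37 (adjusted p = 0.00454) with 13 libraries and 0.63 ± 0.20 (adjusted p = 0.0226) with 10; in the smaller set the call was lost without knock-in 1 (adjusted p = 0.0523) and without knock-in 7 (adjusted p = 0.114). Ccna2, the cyclin of S phase and mitotic entry, rose by 2.30 (adjusted p = 0.0111) and 0.85 (adjusted p = 0.00279) on the log2 scale, and without knock-in 6 the first of these was 1.23. Ccnb2 and Foxm1, the latter a transcription factor of G2 and mitotic genes, rose with 13 libraries by 3.21 and 2.13 but did not pass with 10, where they had 0.69 (adjusted p = 0.0655) and 0.58 (adjusted p = 0.0653). Without knock-in 6 the 13-library values of Ccnb2 and Foxm1 were 1.94 and 1.20.

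Aurora B and survivin belong to the chromosomal passenger complex, which corrects chromosome attachment and guides cytokinesis. Aurkb, which encodes the kinase, ranged from 0.391 to 0.816 CPM with a median of 0.673 in wild type, against 1.502, 1.16, 1.18 and 1.61 in knock-in 1, 2, 3 and 7 and 3.903, 3.05 and 13.1 in knock-in 4, 5 and 6. The groups did not overlap, and the log2 fold change was 2.47 ± 0.59 (adjusted p = 0.0048) with 13 libraries and 1.06 ± 0.26 (adjusted p = 0.00471) with 10. Birc5, which encodes survivin, ranged from 0.637 to 1.73 CPM with a median of 1.47 in wild type, against 2.42, 2.86, 1.38 and 3.19 in knock-in 1, 2, 3 and 7 and 6.73, 5.64 and 12.3 in knock-in 4, 5 and 6. Here knock-in 3 lay inside the wild-type range. The log2 fold change of Birc5 was 1.84 ± 0.45 (adjusted p = 0.00514) with 13 libraries and 0.84 ± 0.28 (adjusted p = 0.0278) with 10, where the call was lost without knock-in 1, 2 or 7 or without wild type 6 (adjusted p from 0.0506 to 0.112). Tpx2, which activates Aurora A on the spindle, rose by 3.07 (adjusted p = 0.00807) and 0.81 (adjusted p = 0.00386). Aurka and Plk1, the Aurora A and Polo-like kinases, rose by 2.90 and 4.00 with 13 libraries; with 10 they had 0.93 (adjusted p = 0.129) and 0.79 (adjusted p = 0.117). Without knock-in 6 the 13-library values of Tpx2 and Aurka were 2.00 and 1.91.

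The anaphase-promoting complex and the spindle checkpoint set the end of mitosis. Ube2c, the ubiquitin-conjugating enzyme of that complex, ranged from 0.779 to 1.73 CPM with a median of 1.21 in wild type, against 2.52, 1.81, 1.77 and 3.05 in knock-in 1, 2, 3 and 7 and 9.72, 10.1 and 12.7 in knock-in 4, 5 and 6. Knock-in 2 and 3 were just above the highest wild-type library and knock-in 4, 5 and 6 were close to each other. On the log2 scale it differed by 2.25 ± 0.51 (adjusted p = 0.00336) with 13 libraries and 0.88 ± 0.25 (adjusted p = 0.0116) with 10, and without knock-in 7 the latter call was lost (adjusted p = 0.0603). Bub1b, a checkpoint kinase-like protein, rose by 1.07 (adjusted p = 0.0121) and 0.64 (adjusted p = 0.0493), and the second call was lost without any one of 7 libraries, wild type 2, 3, 4 and 6 and knock-in 1, 2 and 7. Cdc20, which activates the complex, and Bub1, a checkpoint kinase, rose by 2.69 and 3.42 with 13 libraries and had 0.20 (adjusted p = 0.46) and 0.65 (adjusted p = 0.119) with 10. The value of Cdc20 with 13 libraries was 1.23 without knock-in 6.

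Kinesins move chromosomes and build the spindle. Kif11, the motor that pushes spindle poles apart and whose promoter is shown above, ranged from 1.801 to 3.46 CPM with a median of 3.05 in wild type, against 5.18, 5.23, 4.26 and 6.24 in knock-in 1, 2, 3 and 7 and 6.85, 6.51 and 18.6 in knock-in 4, 5 and 6. All 7 knock-in libraries lay above wild type, with knock-in 4 and 5 near knock-in 7 and knock-in 6 well above. The fitted difference was 1.40 ± 0.32 (adjusted p = 0.00366) with 13 libraries and 0.87 ± 0.19 (adjusted p = 0.00201) with 10. Cenpe, the motor at the kinetochore, ranged from 0.901 to 2.29 CPM with a median of 1.37 in wild type, against 2.71, 3.14, 1.64 and 3.12 in knock-in 1, 2, 3 and 7 and 2.95, 3.27 and 5.56 in knock-in 4, 5 and 6. Knock-in 3 lay within the wild-type range and the others above it. The log2 fold change of Cenpe was 1.18 ± 0.28 (adjusted p = 0.00454) and 0.91 ± 0.28 (adjusted p = 0.0158), and the 10-library call was lost without knock-in 7 (adjusted p = 0.0566). Kif20a and Kif23, motors of cytokinesis, rose by 2.20 (adjusted p = 0.00977) and 2.43 (adjusted p = 0.00777) with 13 libraries. With 10 they rose by 0.79 (adjusted p = 0.0185, lost without knock-in 7 at 0.102) and 0.80 (adjusted p = 0.0124, lost without knock-in 1 at 0.0585). Without knock-in 6 the 13-library values were 1.33 and 1.62.

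Mki67 and Top2a are both common markers of dividing cells, and they parted in knock-in 4, 5 and 6. Mki67, which encodes the Ki-67 protein that coats mitotic chromosomes, ranged from 6.69 to 11.9 CPM with a median of 8.73 in wild type, against 16.5, 13.9, 11.7 and 22.1 in knock-in 1, 2, 3 and 7 and 9.88, 10.8 and 12.2 in knock-in 4, 5 and 6. Knock-in 3, 4 and 5 lay within the wild-type range. Its log2 fold change was 0.66 ± 0.19 (adjusted p = 0.0135) with 13 libraries and 0.88 ± 0.18 (adjusted p = 0.00144) with 10. Top2a, the topoisomerase that untangles sister chromosomes, ranged from 3.75 to 5.43 CPM with a median of 4.598 in wild type, against 10.03, 8.802, 6.03 and 12.2 in knock-in 1, 2, 3 and 7 and 61.5, 71.8 and 306 in knock-in 4, 5 and 6. On the log2 scale it differed by 3.89 ± 0.95 (adjusted p = 0.006) with 13 libraries and 1.02 ± 0.18 (adjusted p = 0.000461) with 10. The ratio of Top2a to Mki67 reads within a library was 0.454 to 0.683 in wild type and 0.514 to 0.632 in knock-in 1, 2, 3 and 7, and it was 6.23, 6.61 and 25.0 in knock-in 4, 5 and 6.

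Cenpf was the member that fell most, with all 7 knock-in libraries under the wild-type range. Cenpf, a large protein of the kinetochore and of microtubules, ranged from 52.2 to 93.7 CPM with a median of 70.8 in wild type, against 17.9, 11.99, 16.9 and 19.99 in knock-in 1, 2, 3 and 7 and 12.7, 18.8 and 25.5 in knock-in 4, 5 and 6. Knock-in 4, 5 and 6 did not stand apart from knock-in 1, 2, 3 and 7 here. The fitted difference was -2.05 ± 0.18 (adjusted p = 4.75e-06) with 13 libraries and -2.13 ± 0.18 (adjusted p = 3.31e-06) with 10, and it was negative under every scaling run. Cenpf reads exceeded Mki67 reads by a ratio of 6.08 to 10.3 in wild type, and the ratio was 0.862 to 1.44 in knock-in 1, 2, 3 and 7 and 1.28, 1.73 and 2.08 in knock-in 4, 5 and 6. Cenpa, the other centromere gene of high level, narrowly missed the threshold with 13 libraries at -0.41 ± 0.16 (adjusted p = 0.0502). With 10 it had -0.16 ± 0.10 (adjusted p = 0.235), which was 0.0858 with library totals and 0.22 on log2(TPM + 1). With 13 libraries Cenpa was called lower with the size factors of DESeq2 and with the DESeq2 test. It was also called lower without knock-in 1, without knock-in 2 and without knock-in 3. Cenpa was 32.02, 38.2, 30.02 and 25.3 CPM in knock-in 1, 2, 3 and 7 and 21.3, 18.7 and 18.4 in knock-in 4, 5 and 6, so that 6 of the 7, all but knock-in 2, lay below the wild-type range of 32.98 to 39.2.

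**Figure D3:**
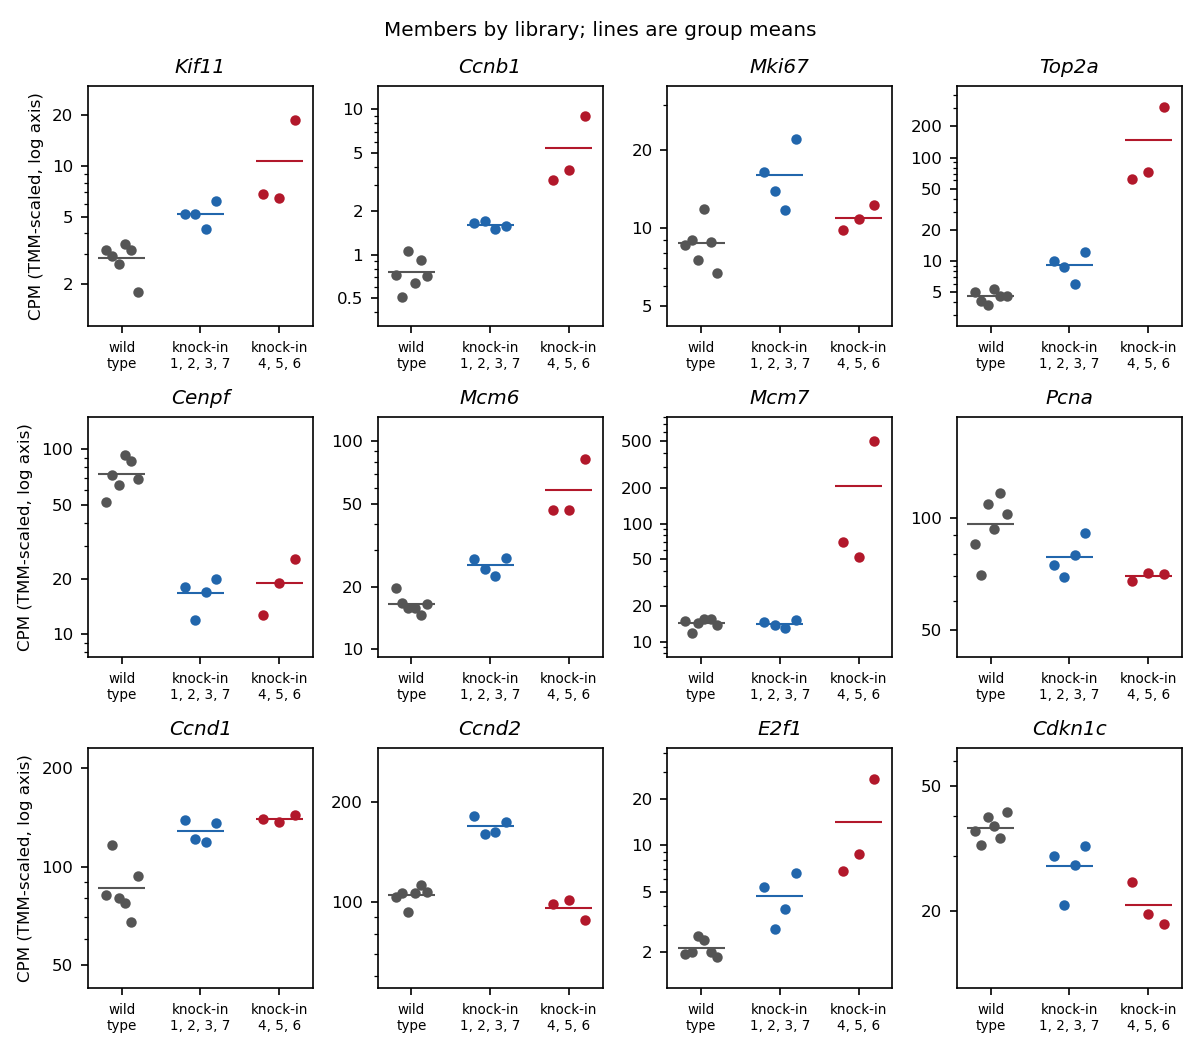
CPM (log axes) of 12 members in each library, with lines at the group means of wild type (6), knock-in 1, 2, 3 and 7, and knock-in 4, 5 and 6. Kif11, Ccnb1 and Top2a are higher in all 7 knock-in libraries, Cenpf is lower in all 7, Mcm7 is high only in the 3 libraries drawn at the right of its panel, and Ccnd2 only in knock-in 1, 2, 3 and 7.

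Of the S-phase genes, most rose with 13 libraries and few with the 10. With 13 libraries 9 of 13 were called higher and 1 lower, with a median log2 fold change of 1.75, or 1.06 without knock-in 6; with 10 libraries 4 were called higher, with a median of 0.40, or 0.24 without knock-in 7. The 4 were Mcm3, Mcm6, Rrm2 and Tyms. Over all tested genes 23.6% were called higher with 13 libraries and 22.3% with 10. The median ratio to the wild-type mean was 1.33 in knock-in 1, 1.02 in knock-in 2, 1.14 in knock-in 3 and 1.65 in knock-in 7, against 2.86, 3.48 and 10.3 in knock-in 4, 5 and 6. Scaled by totals alone, 12 S-phase genes, all but Pcna, were called higher with 13 libraries, and 8 with 10. Over all genes that scaling called 6110 of 14588 and 6049 of 14518 higher. The DESeq2 test with 13 libraries called 11 higher, and 3876 of 14588 over all genes. The difference between S-phase and mitotic genes was not itself tested.

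The MCM proteins form the ring helicase that unwinds DNA at the fork. Mcm6 ranged from 14.7 to 19.8 CPM with a median of 16.2 in wild type, against 27.2, 24.4, 22.5 and 27.4 in knock-in 1, 2, 3 and 7 and 46.9, 46.8 and 81.8 in knock-in 4, 5 and 6. Mcm3 ranged from 6.73 to 8.16 CPM with a median of 7.62 in wild type, against 10.8, 9.902, 9.504 and 13.01 in knock-in 1, 2, 3 and 7 and 31.4, 30.9 and 81.7 in knock-in 4, 5 and 6. For both genes all 7 knock-in libraries lay above wild type. Mcm6 had a log2 fold change of 1.26 ± 0.28 (adjusted p = 0.00287) with 13 libraries and 0.62 ± 0.10 (adjusted p = 0.000263) with 10, and Mcm3 of 1.83 ± 0.49 (adjusted p = 0.00995) and 0.52 ± 0.12 (adjusted p = 0.0027). The other 4 subunits rose with 13 libraries and did not pass with 10. Mcm7 differed most: wild type ranged from 11.9 to 15.6 CPM with a median of 14.8, knock-in 1, 2, 3 and 7 had 14.7, 13.97, 13.04 and 15.2, and knock-in 4, 5 and 6 had 70.5, 52.6 and 501. Its log2 fold change was 2.76 ± 0.91 (adjusted p = 0.027) with 13 libraries, 1.06 (adjusted p = 0.0683) without knock-in 6, and -0.01 ± 0.10 (adjusted p = 0.918) with 10, where it was 0.24 with library totals. Mcm2, Mcm4 and Mcm5 had 2.27, 1.76 and 2.16 with 13 libraries and 0.30 (adjusted p = 0.0966), 0.20 (adjusted p = 0.18) and 0.50 (adjusted p = 0.0622) with 10. Without knock-in 6 the 13-library values of Mcm2 and Mcm4 were 0.91 and 1.17.

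Ribonucleotide reductase and thymidylate synthase make the building blocks of DNA. Rrm2, the subunit of the reductase that rises in S phase, ranged from 1.77 to 3.78 CPM with a median of 2.79 in wild type, against 5.23, 3.63, 3.998 and 4.77 in knock-in 1, 2, 3 and 7 and 17.3, 9.48 and 11.6 in knock-in 4, 5 and 6. Only knock-in 2 lay inside the wild-type range. On the log2 scale it differed by 1.48 ± 0.37 (adjusted p = 0.00547) with 13 libraries and 0.62 ± 0.21 (adjusted p = 0.0239) with 10, where the call was lost without knock-in 1 (adjusted p = 0.0918) or knock-in 7 (adjusted p = 0.0687). Tyms, thymidylate synthase, ranged from 3.47 to 5.32 CPM with a median of 4.24 in wild type, against 8.67, 5.28, 6.29 and 9.12 in knock-in 1, 2, 3 and 7 and 10.2, 14.4 and 47.3 in knock-in 4, 5 and 6. Knock-in 2 was again inside the wild-type range, just under its top. The log2 fold change of Tyms was 1.75 ± 0.47 (adjusted p = 0.00914) and 0.78 ± 0.17 (adjusted p = 0.00269), and without knock-in 6 the first was 1.07. Rrm1, the large subunit, did not pass in either set, with 0.97 (adjusted p = 0.0714) and -0.17 (adjusted p = 0.234), the former 0.59 without knock-in 6 and the latter 0.0893 with library totals. With 13 libraries scaled by their totals, Rrm1 was called higher.

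Of the licensing and firing factors, Cdc6, which loads the helicase, rose with 13 libraries by 1.96 (adjusted p = 0.014) and had 0.40 (adjusted p = 0.279) with 10. Cdt1, its partner in loading, had 0.46 (adjusted p = 0.159) and 0.52 (adjusted p = 0.128). Cdc45, which activates the helicase, had 1.40 (adjusted p = 0.0609) and -0.21 (adjusted p = 0.385), the former 0.69 without knock-in 6 and the latter 0.052 with library totals. With 13 libraries scaled by their totals, Cdt1 and Cdc45 were both called higher. Pcna, the sliding clamp of DNA polymerase, had the highest wild-type TPM of the members and was not called higher in either set. It ranged from 70.3 to 117 CPM with a median of 98.04 in wild type, against 74.7, 69.5, 79.6 and 91.2 in knock-in 1, 2, 3 and 7 and 67.7, 70.99 and 70.8 in knock-in 4, 5 and 6, all inside the wild-type range or just below it. The fitted difference was -0.36 ± 0.12 (adjusted p = 0.0249) with 13 libraries and -0.29 ± 0.13 (adjusted p = 0.0912) with 10. The fall with 13 libraries depends on the scaling: it was -0.0978 (adjusted p = 0.481) with library totals and 0.0987 on log2(TPM + 1), and the call was also lost without wild type 3, 4, 5 or 6. The ratio of Mcm7 to Pcna reads was 0.133 to 0.177 in wild type, 0.164 to 0.201 in knock-in 1, 2, 3 and 7 and 1.04, 0.740 and 7.07 in knock-in 4, 5 and 6. The ratio of Mcm6 to Pcna reads was 0.126 to 0.237 in wild type, 0.283 to 0.365 in knock-in 1, 2, 3 and 7 and 0.693, 0.659 and 1.16 in knock-in 4, 5 and 6. Neither ratio was tested.

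**Figure D4:**
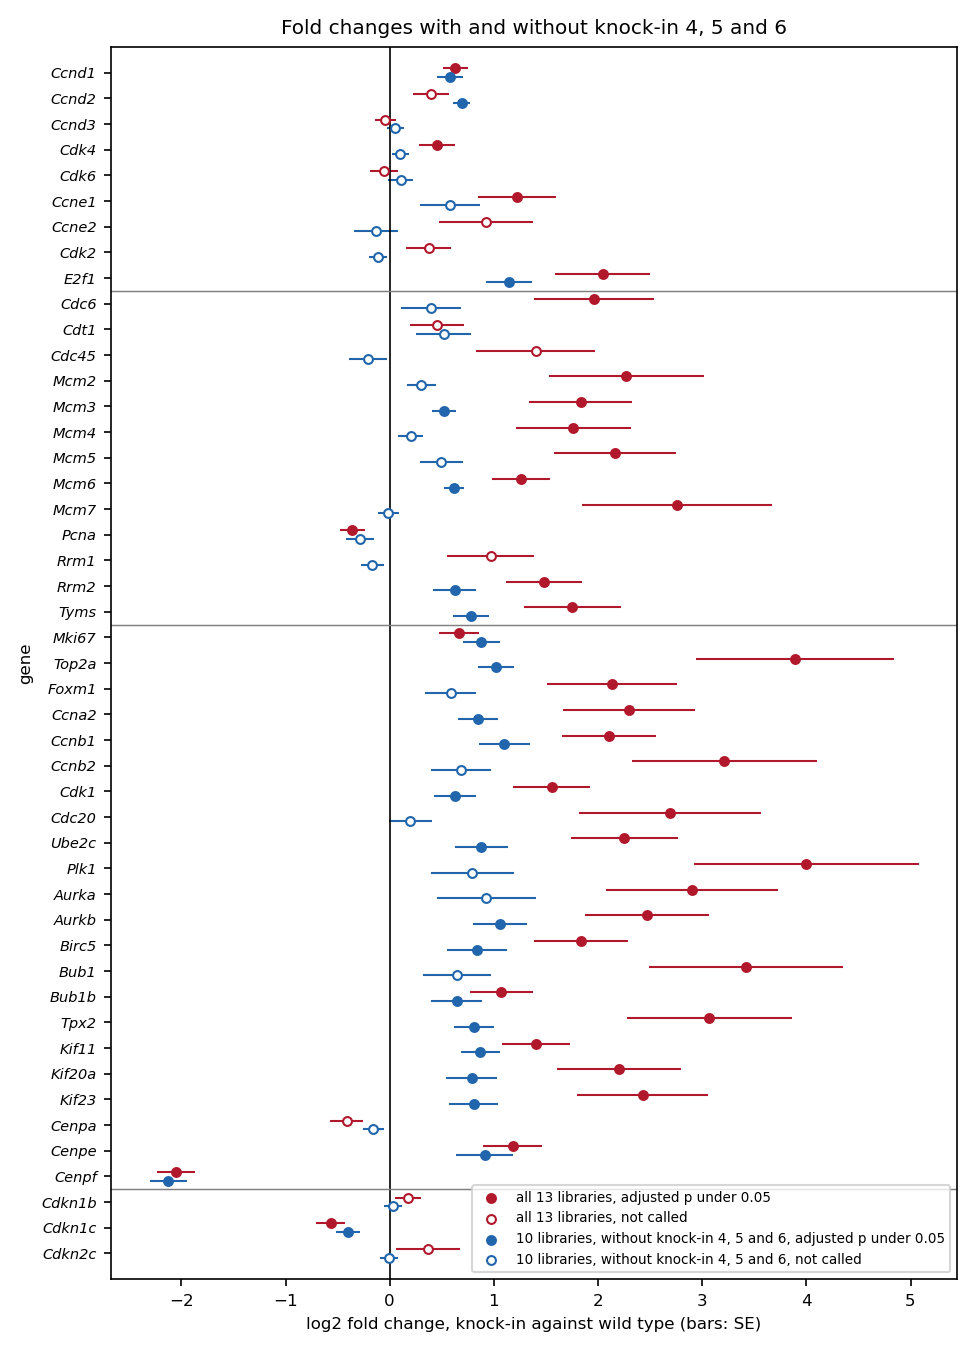
Log2 fold change of each member, knock-in against wild type, with bars of 1 SE, for all 13 libraries (red) and the 10 without knock-in 4, 5 and 6 (blue), and filled points where the adjusted p was under 0.05. The median over the 22 mitotic genes is 2.23 in red and 0.81 in blue, that over the 13 S-phase genes 1.75 and 0.40, and Cenpf lies near -2 in both.

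Among the G1 genes 4 of 9 were called higher with 13 libraries and 3 with 10, with medians of 0.45 and 0.11. Of all tested genes 23.6% and 22.3% were called higher, with medians of 0.08 and 0.02. Ccnd1 and Ccnd2, the D-type cyclins that couple growth signals to the cycle, differed from each other in knock-in 4, 5 and 6. Ccnd1 ranged from 68.00 to 116 CPM with a median of 81.1 in wild type, against 139, 121, 119 and 136 in knock-in 1, 2, 3 and 7 and 139.9, 137 and 144 in knock-in 4, 5 and 6. All 7 knock-in libraries lay above wild type and close together, and the log2 fold change was 0.63 ± 0.12 (adjusted p = 0.000835) with 13 libraries and 0.58 ± 0.13 (adjusted p = 0.00234) with 10. Ccnd2 ranged from 93.7 to 113 CPM with a median of 107 in wild type, against 182, 159.8, 163 and 175 in knock-in 1, 2, 3 and 7 and 98.7, 102 and 88.2 in knock-in 4, 5 and 6. The first 4 lay above every wild-type library and the last 3 within or below the wild-type range. Its log2 fold change was 0.39 ± 0.17 (adjusted p = 0.0751) with 13 libraries and 0.69 ± 0.08 (adjusted p = 2.47e-05) with 10. Ccnd3 ranged from 58.4 to 72.3 CPM with a median of 70.9 in wild type, with 73.8, 63.9, 74.8 and 71.97 in knock-in 1, 2, 3 and 7 and 51.2, 60.9 and 69.5 in knock-in 4, 5 and 6; the groups overlapped, and its log2 fold change of -0.04 ± 0.10 (adjusted p = 0.749) was 0.20 with library totals.

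E2f1, the transcription factor that D- and E-type cyclins set free, ranged from 1.86 to 2.55 CPM with a median of 2.01 in wild type, against 5.38, 2.86, 3.87 and 6.63 in knock-in 1, 2, 3 and 7 and 6.81, 8.798 and 27.1 in knock-in 4, 5 and 6. No knock-in library overlapped wild type, and the log2 fold change was 2.04 ± 0.46 (adjusted p = 0.00313) with 13 libraries and 1.15 ± 0.22 (adjusted p = 0.00101) with 10. Ccne1, a cyclin of S-phase entry, rose with 13 libraries by 1.22 (adjusted p = 0.0169) and had 0.58 (adjusted p = 0.115) with 10. Cdk4 rose with 13 libraries by 0.45 (adjusted p = 0.0413), a call lost in 9 of the 13 fits that left out a library, and had 0.10 (adjusted p = 0.335) with 10. Ccne2, Cdk2 and Cdk6 did not pass in either set, with 0.92, 0.37 and -0.06 with 13 libraries and -0.13, -0.11 and 0.11 with 10. Without knock-in 6 the 13-library values of Ccne2 and Cdk2 were 0.41 and 0.17. With library totals the direction of these small values turned for Cdk6 with 13 libraries (0.19) and for Ccne2 (0.13) and Cdk2 (0.13) with 10.

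Of the CDK inhibitors, Cdkn1c was called lower and Cdkn1b and Cdkn2c were not called, a split that turned with the scaling. With library totals Cdkn1b was called higher and Cdkn1c was not called in either set, and on log2(TPM + 1) Cdkn1b was higher with 13 libraries and both Cdkn1b and Cdkn2c with 10. Cdkn1c, which encodes p57 and is expressed from the maternal allele, ranged from 32.3 to 41.1 CPM with a median of 36.6 in wild type, against 29.8, 20.9, 28.1 and 32.2 in knock-in 1, 2, 3 and 7 and 24.8, 19.6 and 18.2 in knock-in 4, 5 and 6. Knock-in 7 was just under the lowest wild-type library. The log2 fold change was -0.57 ± 0.14 (adjusted p = 0.00501) with 13 libraries and -0.40 ± 0.11 (adjusted p = 0.0116) with 10, and with library totals both calls were lost, at -0.31 (adjusted p = 0.0802) and -0.14 (adjusted p = 0.36). Cdkn1b, which encodes p27, ranged from 50.05 to 60.1 CPM with a median of 53.9 in wild type, with 55.5, 61.1, 60.4 and 47.5 in knock-in 1, 2, 3 and 7 and 55.8, 67.3 and 87.2 in knock-in 4, 5 and 6, and had log2 fold changes of 0.18 ± 0.12 (adjusted p = 0.251) and 0.03 ± 0.09 (adjusted p = 0.807), which were 0.42 (adjusted p = 0.0178) and 0.27 (adjusted p = 0.04) with library totals. Cdkn2c, which encodes p18 and binds CDK4 and CDK6, ranged from 20.4 to 24.8 CPM with a median of 22.5 in wild type, with 22.4, 20.6, 22.4 and 24.3 in knock-in 1, 2, 3 and 7 and 17.6, 20.5 and 76.3 in knock-in 4, 5 and 6. Knock-in 6 alone stood above wild type, and the log2 fold changes were 0.37 ± 0.31 (adjusted p = 0.341) and -0.01 ± 0.09 (adjusted p = 0.936), the former -0.0851 without knock-in 6 and the latter 0.24 (adjusted p = 0.0783) with library totals and 0.38 (adjusted p = 0.00886) on log2(TPM + 1).

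Other genes of the cycle, taken from lists that do not hold the members, were counted in the same way, beside 23.6% of all genes higher with 13 libraries and 22.3% with 10. Counts with library totals stand beside 6110 of 14588 genes higher and 1661 lower with 13 libraries. With 10 they stand beside 6049 of 14518 higher and 1528 lower. Of 63 other mitotic genes, 60 were tested with 13 libraries and 44 were called higher and 4 lower, with a median of 1.41; with 10 libraries 58 were tested and 31 were higher and 3 lower, with a median of 0.70. Library totals gave 53 higher and 3 lower with 13 and 40 and 2 with 10. Of 49 other replication genes, 47 were tested, of which 18 were higher and 4 lower with 13 libraries (median 0.55, or 0.31 without knock-in 6), and 6 higher and 8 lower with 10 (median -0.03, or 0.0551 without knock-in 2), a split that became 14 higher and 3 lower with library totals. Of 25 other regulators of G1 and of the RB, E2F and DREAM proteins, 10 were higher and 4 lower with 13 libraries and 7 and 4 with 10, or 17 and 2 and 11 and 2 with library totals. Of 10 other CDK inhibitors and brakes, 6 were higher and 2 lower with 13 libraries, and of the 9 tested with 10, 3 were higher and 1 lower, or 8 and 1 and 5 and 1 with library totals. The 3 genes of each list with the smallest p show both directions in each list. Among replication genes Dut, which removes dUTP, fell by 1.19 and 0.97 on the log2 scale with 13 and 10 libraries, Gmnn, an inhibitor of Cdt1, fell by 0.87 and 0.71, and Dbf4, the activator of the Cdc7 kinase, rose by 1.11 and 0.73; the fall of Gmnn with 10 libraries did not pass on log2(TPM + 1), where it was -0.28 (adjusted p = 0.0697). Among mitotic genes Pttg1, which encodes securin, fell by 1.01 and 0.82, Sgo2a, a protector of centromere cohesion, fell by 1.31 and 1.03, and Nek2, a centrosome kinase, rose by 2.31 and 1.33. Among G1 regulators Fbxw7, which targets cyclin E for destruction, fell by 1.05 and 1.02, Ccnh, the cyclin of the CDK-activating kinase, fell by 0.62 and 0.65, and E2f2 rose by 1.61 and 1.46. Among brakes Ccng1 fell by 0.83 and 0.62, while Cdkn2b, which encodes p15, rose by 2.31 and 0.96 and Cdkn1a, which encodes p21, by 1.04 and 1.42. All 12 passed in both sets, with adjusted p up to 0.0117 with 13 libraries and 0.0173 with 10, and none turned direction in any alternative. On log2(TPM + 1) the falls of Ccnh with 13 libraries (-0.19, adjusted p = 0.0804) and of Ccng1 with 10 (-0.21, adjusted p = 0.158) did not pass, and with an indicator for knock-in 4, 5 and 6 Cdkn2b had 0.96 (adjusted p = 0.124).

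Markers of several cell types also differed between the groups. The summed CPM of 7 cardiomyocyte markers was 50995 to 77318 in wild type, 28394 to 42735 in knock-in 1, 2, 3 and 7 and 20924 to 23835 in knock-in 4, 5 and 6, the highest sum of the 9 lists in every library, and 7 of 7 were called lower with 13 libraries and 6 with 10. That of 6 activated fibroblast markers was 279.7 to 459, 1023 to 1503 and 1460.5 to 1786 in the same groups, with 6 called higher with 13 libraries and 4 with 10. That of 7 fibroblast markers was 2391 to 4256, 4597 to 6280.3 and 4207 to 8094, with 2 and 6 higher. In knock-in 4, 5 and 6 the collagen genes Col1a1 (574 to 2079 CPM) and Col3a1 (1136 to 3650.0 CPM) carried that sum, while Pdgfra, Tcf21, Dpt, Lum and Dcn lay within their wild-type ranges and the median ratio of the 7 to their wild-type means was 1.06, 0.944 and 1.03. That of 7 macrophage markers was 368 to 471, 552 to 820.3 and 425 to 484, with 4 and 6 higher. Epithelial markers set knock-in 4, 5 and 6 apart. The sum of 6 was 9.93 to 34.8 in wild type and 14.1 to 35.1 in knock-in 1, 2, 3 and 7. In knock-in 4, 5 and 6 it was 2364 to 3628, with keratins the largest part. With 13 libraries 4 of the 4 tested were called higher. Epcam and Cdh1 were not tested, but both were also high in these 3 libraries. Epcam had 57.35, 19.69 and 35.61 CPM in knock-in 4, 5 and 6, and Cdh1 had 72.76, 30.93 and 24.37. In wild type Epcam ranged from 0 to 0.266 CPM and Cdh1 from 0.0708 to 0.372. In knock-in 1, 2, 3 and 7 they reached at most 0.328 and 0.912 CPM. The 7 endothelial markers summed to 2123 to 2557, 1944 to 2911 and 1188 to 1499 in wild type, knock-in 1, 2, 3 and 7, and knock-in 4, 5 and 6, with 2 higher with 10 libraries. Fabp4 was the largest part of that sum in every library, at 1168 to 1541, 954.5 to 1739 and 534 to 773 CPM. The 7 T and B cell markers, of which 5 were tested, summed to 3.51 to 8.97, 6.54 to 7.96 and 11.1 to 13.98, with 2 higher in each set and 1 lower with 10. The 6 pericyte and smooth muscle markers summed to 1209 to 1910.1, 1309 to 1746 and 1252 to 1310.2, with 2 higher and 1 lower with 13 libraries and 3 higher with 10. Rgs5, the largest part of that sum, lay at 941 to 1547, 933 to 1348 and 710 to 779 CPM and was not called. Tagln lay at 69.6 to 126, 110 to 270 and 260.5 to 355 CPM and was called higher in both sets. The 6 erythroid markers, of which Hbb-bs and Ahsp were at 0 in a wild-type library, summed to 457 to 905, 320.4 to 1291 and 208 to 763. The part of these cells in the members' changes was not tested.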

How the data were processed

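Right ventricular RNA was enriched for poly(A) transcripts and made into stranded libraries, per the labels' protocols. DRAGEN and the build GRCm39 (mm39) are named by the submitters' processing notes; annotation and strand setting: not given in the sources used here. Each library's deposited gene table holds the authors' estimated counts (not always whole), TPM and effective lengths, per the file headers. Mitochondrially encoded genes were not analysed here.

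Titles in the labels gave the groups and replicate numbers. After rounding of the estimated counts, filterByExpr kept genes, TMM set the scaling, and the robust quasi-likelihood test of edgeR 4.0.16 (R 4.3.3) compared the groups without a covariate, with Benjamini-Hochberg adjustment across every gene tested and calls at an adjusted p under 0.05. The SE is the size of the log2 fold change over the root of its F value. CPM uses the factors of the 13 libraries. A value counted as whole within 1e-09. Of the 47 members, 40 had whole read numbers in every library; Ccnd1, Ccnd3, Ccne2, Tyms, Ccna2, Kif20a and Ccnb2 had others, in knock-in 4, 5 or 6 only. Reads shared between paralogs, or between genes that overlap on opposite strands, cannot be told apart in these tables, so such values are uncertain. No pair of replicates agreed within sampling noise.

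The members and lists were chosen with earlier results of these data known. Values per library are given for members called in both sets of libraries, up to 8 per role by smallest p, and for CDK inhibitors and D-type cyclins; Top2a, Mki67, Mcm7 and Pcna were added after their values were seen. Of each list of other cell cycle genes, the 3 with the smallest p with 13 libraries among those with a mean of at least 1 CPM were named. Alternatives were the size factors of DESeq2 (1.42.0) and its test, library totals, limma (3.58.1) on log2(TPM + 1) and on log2(TPM + 0.1), no filter (at least 1 read in all), a filter of at least 1 CPM in 6 libraries (4 with 10 libraries), an adjusted p under 0.01, a replicate block, an indicator for knock-in 4, 5 and 6, and each library left out in turn. The fits were also run on simulated counts drawn from wild-type means and spreads, with 200 changed genes. The simulation did not set knock-in 4, 5 and 6 apart, so it does not show how the fits behave with such libraries. Promoters are RefSeq's for GRCm38.p6; Ccnd1, Ccnd2, Ccne2, Mcm4, Foxm1, Ccna2, Aurkb, Tpx2, Kif20a and Cdkn1c were not matched. Summaries and figures used Python 3.11.15, pandas 2.3.3 and matplotlib 3.10.9.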

Additional observations from a re-analysis of the deposited data

Results flagged for a closer look

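In 24 of the 47 members the value of knock-in 6 lay far from those of the other 6 knock-in libraries (a gap from the nearest library over the 95% limit of Dixon's test for 7 values). By chance about 1 in 20 groups would be marked in this way, and the genes of 1 library are not independent of each other. All values are CPM in knock-in 6. Among S-phase genes these were Cdc45 at 26.9, Mcm2 at 181, Mcm3 at 81.7, Mcm6 at 81.8, Mcm7 at 501 and Tyms at 47.3. Among mitotic genes they were Top2a at 306, Foxm1 at 30.7, Ccna2 at 58.2, Ccnb1 at 9.04, Ccnb2 at 48.96, Cdc20 at 69.1, Plk1 at 41.4 and Aurka at 18.8, with Aurkb at 13.1, Bub1 at 37.1, Bub1b at 8.89, Tpx2 at 67.96, Kif11 at 18.6, Kif20a at 26.3, Kif23 at 38.7 and Cenpe at 5.56. E2f1, at 27.1, and the CDK inhibitor Cdkn2c, at 76.3, were the others. No wild-type library was marked for any member.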

How the results depend on the processing

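With 13 libraries the 9 S-phase genes called higher became 2 with an indicator for knock-in 4, 5 and 6, 4 with only the 10 libraries and 4 at an adjusted p under 0.01; the 20 mitotic genes became 8 with the indicator and 12 at 0.01, and stayed 20 with each library left out; and the 4 G1 genes called became 2 at 0.01. With 10 libraries the 14 mitotic genes became 7 at 0.01. Leaving out 1 library gave 8 to 11 S-phase and 3 to 4 G1 genes with 13 libraries, and 3 to 6 S-phase, 8 to 16 mitotic (8 without knock-in 7) and 3 to 3 G1 genes with 10. Library totals, log2(TPM + 1) and log2(TPM + 0.1) each gave 7 G1 genes in both sets. They gave 12, 10 and 10 S-phase genes with 13 libraries and 8, 9 and 9 with 10. Over all genes they called 6110, 7665 and 7840 of 14588 higher with 13 libraries, and 6049, 7737 and 7704 of 14518 with 10. The indicator called 2731 of 14588 genes higher and 2668 lower. Dsg2 was lower in every alternative.

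Whether the replicate numbers pair the samples could not be decided, since the sources used here give no litter or batch. The correlation of same-numbered libraries, as deviations from their group means, ran from -0.0952 to 0.042 over 6 numbers. These values were not compared with those of differently numbered libraries, and the knock-in mean includes the libraries that stood apart. With the replicate number as a block 6 S-phase, 14 mitotic and 2 G1 genes were called higher with 13 libraries, and 1, 4 and 1 with 10. Over all genes the block called 2270 of 14588 higher and 2541 lower with 13 libraries. With 10 it called 1385 of 14518 higher and 1400 lower, so calls fell over all genes too.

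Small values that were not called turned sign with the scaling. With library totals, log2(TPM + 1) and log2(TPM + 0.1) in turn, the 13-library values were 0.20, 0.38 and 0.39 for Ccnd3 and 0.19, 0.27 and 0.37 for Cdk6, and the 10-library values 0.13, 0.17 and 0.20 for Ccne2, 0.052, 0.11 and 0.16 for Cdc45, 0.13, 0.24 and 0.27 for Cdk2, 0.24, 0.38 and 0.40 for Cdkn2c, 0.0858, 0.22 and 0.23 for Cenpa, 0.24, 0.32 and 0.35 for Mcm7 and 0.0893, 0.21 and 0.23 for Rrm1. On the TPM scales Pcna was 0.0987 and 0.0995 with 13 libraries, against its called fall, and 0.12 and 0.12 with 10. The indicator and the 10 libraries turned Ccnd3 (0.0525 and 0.053), Cdk6 (0.11 and 0.11), Ccne2 (-0.13 and -0.13), Cdc45 (-0.21 and -0.21), Cdk2 (-0.11 and -0.11), Cdkn2c (-0.0111 and -0.0101), Rrm1 (-0.17 and -0.17) and the called rise of Mcm7 (-0.0154 and -0.0146). The block turned Ccne2 (0.0545) and Mcm7 (0.016) with 10 libraries. With 1 library left out the values of Ccnd3 ran from -0.0715 to 0.0141, of Cdk6 from -0.12 to 0.0415 and of Cdkn2c from -0.0851 to 0.46 with 13 libraries, and of Cdkn1b from -0.0246 to 0.0982, Cdkn2c from -0.058 to 0.0195 and Mcm7 from -0.071 to 0.0209 with 10. The causes were not tested. Of the members called, 33 of 36 with 13 libraries and 15 of 23 with 10 passed whichever library was left out. Plk1 did not pass the stricter filter in either set and has no value there. Depth limits the scarce mitotic genes, which rest on down to 2 reads in a library.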
